A study of Mus musculus with 3 samples.

Results

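Intergenic NONCODE lncRNAs are the RNAs described here. They are the entries of the deposited lncRNA table that carry a NONCODE identifier and whose locus overlaps no GENCODE M21 gene of any type, on either strand, in GRCm38. There were 5746 such RNAs, which is 28.2% of the 20341 NONCODE entries, 24.2% of the 23718 lncRNAs and part of the 81741 mRNAs, lncRNAs and circRNAs of the series. The study sequenced RNA of apoptotic bodies (ABs) from 3 stages of osteoclast formation, with 1 library per stage. BMM-ABs came from bone marrow macrophages (BMMs) grown with M-CSF alone. pOC-ABs came from preosteoclasts (pOCs) that had received RANKL for 24 h, and mOC-ABs from mature osteoclasts (mOCs) that had received RANKL for 72 h or more by the labels and 96 h by the methods. All cells came from hind limb marrow of 11-week-old male C57BL/6 mice and were kept in M-CSF throughout. All were also driven into apoptosis, with 500 μM alendronate for 12 h by the labels and with 0.5 μM staurosporine for 3 h by the methods. RANKL was at 100 ng/mL, M-CSF beside it at 30 ng/mL in the labels, and BMMs had 50 ng/mL of M-CSF for 72 h by the labels or 48 h by the methods. The sample titles name the cells, whereas the design text of the series speaks of ABs, which is how the libraries are treated here.

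Long noncoding RNAs are transcripts without a recognised reading frame, and NONCODE collects them from many sources, including assemblies that other annotations do not hold. An RNA listed between genes can be a gene of its own, an extension of a neighbouring transcript beyond its annotated end, or a product of an active promoter, since promoters of many mammalian genes are transcribed in both directions and the RNA made away from the gene is short-lived. ABs are membrane-bound pieces of dying cells that carry nuclear and cytoplasmic contents. RANKL and M-CSF turn macrophages first into mononuclear preosteoclasts, which then fuse to multinucleated, bone-resorbing osteoclasts.

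By summed level, the marker lists set mOC-ABs apart from BMM-ABs. The osteoclast list did not rise from BMM-ABs to pOC-ABs, where only the macrophage list differed clearly. Ctsk, the collagen-degrading cathepsin of osteoclasts, counted 180 reads in BMM-ABs, 171 reads in pOC-ABs and 1001 reads in mOC-ABs, and Acp5, the tartrate-resistant acid phosphatase, had 88, 292 and 2157. The summed level of the osteoclast list (19 of 20 annotated genes with reads, Calcr without an entry) was 1072, 1008 and 2460 reads per 1000000 mRNA and lncRNA reads (RPM). The summed macrophage list (19 of 20 genes with reads, C1qa at 0) was at 4750, 2142 and 1585 RPM. Single genes of both lists also went other ways than their sums. Fos of the osteoclast list had 1118, 562 and 363 reads, and Csf1r of the macrophage list had 9870, 2640 and 3902. All 6 neutrophil markers were at 0, and the T cell, B cell and erythroid lists summed to at most 0.337 RPM in any library. The mesenchymal list summed to 2.98, 3.12 and 1.56 RPM with Col1a1 at 0, and the endothelial list to 1.81, 1.01 and 4.07 RPM with Tek at 0. A marker given as 0 may, like Calcr, have had no entry, which is not the same as a measured 0. In such bulk libraries, fewer ABs of a kind and less of an RNA in each AB cannot be told apart.

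Of the members whose levels peaked in pOC-ABs, many began or ended right beside the start of a protein-coding gene, as described further on. The promoter windows printed here belong to the 5 pOC-AB signatures (members called higher in pOC-ABs than in both other ABs) with the most reads among those that share bases with a window. In 4 of them the window is that of the nearest gene, and in the other, Gm51708, it is that of a RefSeq gene starting within the lncRNA locus. Each window runs from 250 bases before to 50 bases after a start that RefSeq gives for the gene, on the strand of the gene and 5′ to 3′. The windows were taken from RefSeq (GRCm38.p6). Capitals mark bases that lie inside the locus of the NONCODE lncRNA.

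Tnrc18: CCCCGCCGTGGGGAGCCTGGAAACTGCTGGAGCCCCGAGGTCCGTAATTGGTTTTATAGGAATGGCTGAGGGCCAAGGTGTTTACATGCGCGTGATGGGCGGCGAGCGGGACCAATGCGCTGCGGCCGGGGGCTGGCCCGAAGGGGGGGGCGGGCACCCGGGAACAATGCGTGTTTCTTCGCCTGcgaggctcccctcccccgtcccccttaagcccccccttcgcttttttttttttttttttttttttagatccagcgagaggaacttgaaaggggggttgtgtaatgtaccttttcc

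Gm51708: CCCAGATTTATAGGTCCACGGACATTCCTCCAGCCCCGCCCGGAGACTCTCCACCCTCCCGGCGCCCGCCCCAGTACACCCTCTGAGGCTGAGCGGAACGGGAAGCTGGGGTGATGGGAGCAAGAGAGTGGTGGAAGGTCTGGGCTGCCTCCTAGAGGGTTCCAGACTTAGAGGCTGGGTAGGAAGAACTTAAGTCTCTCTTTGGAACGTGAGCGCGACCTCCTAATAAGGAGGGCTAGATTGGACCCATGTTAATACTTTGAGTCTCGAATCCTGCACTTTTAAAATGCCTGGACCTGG

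Slc19a2: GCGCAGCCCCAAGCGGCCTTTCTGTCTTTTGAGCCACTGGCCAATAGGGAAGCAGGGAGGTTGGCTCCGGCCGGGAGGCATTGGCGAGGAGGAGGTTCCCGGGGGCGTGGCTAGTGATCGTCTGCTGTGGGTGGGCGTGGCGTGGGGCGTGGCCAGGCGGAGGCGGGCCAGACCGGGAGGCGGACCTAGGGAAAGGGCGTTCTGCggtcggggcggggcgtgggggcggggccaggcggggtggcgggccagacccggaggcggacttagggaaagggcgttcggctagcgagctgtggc

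Maml1: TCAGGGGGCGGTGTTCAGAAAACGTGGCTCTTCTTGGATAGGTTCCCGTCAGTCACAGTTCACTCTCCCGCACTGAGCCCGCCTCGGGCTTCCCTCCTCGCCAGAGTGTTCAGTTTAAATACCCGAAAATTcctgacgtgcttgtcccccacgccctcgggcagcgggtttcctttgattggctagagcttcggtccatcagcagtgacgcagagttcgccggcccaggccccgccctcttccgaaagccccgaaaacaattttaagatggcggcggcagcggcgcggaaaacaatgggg

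Spag5: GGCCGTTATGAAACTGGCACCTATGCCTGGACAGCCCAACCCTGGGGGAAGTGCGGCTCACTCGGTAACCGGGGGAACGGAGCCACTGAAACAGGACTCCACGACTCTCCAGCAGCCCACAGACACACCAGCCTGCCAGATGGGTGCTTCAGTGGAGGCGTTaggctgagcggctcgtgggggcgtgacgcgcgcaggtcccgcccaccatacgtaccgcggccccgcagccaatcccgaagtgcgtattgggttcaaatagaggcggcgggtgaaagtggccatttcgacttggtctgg

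The Tnrc18 window (chr5:142817613-142817912, minus strand) gives 185 of its 300 bases to NONMMUT149260.1, and the Slc19a2 window (chr1:164248796-164249095, plus strand) gives 205 bases to NONMMUT139212.1. The Maml1 window (chr11:50292287-50292586, minus strand) gives 131 bases to NONMMUT140414.1, and the Spag5 window (chr11:78301341-78301640, plus strand) gives 162 bases to NONMMUT010904.2. The Gm51708 window (chr9:59655857-59656156, minus strand) lies wholly inside NONMMUT069371.2, whose nearest GENCODE gene is Pkm, 59 bases away. In the other 4 windows the capitals stand at the upstream end and the lower case at the end towards the gene, so the lncRNA locus stops upstream of the start that defines the window. RefSeq also has gene models named Tnrc18, Maml1 and Spag5 over the loci of NONMMUT149260.1, NONMMUT140414.1 and NONMMUT010904.2, which GENCODE M21 leaves between genes, and none over NONMMUT139212.1. The Tnrc18, Maml1 and Spag5 models thus reach upstream past the start in the window, which is not their outermost start. By RefSeq these members overlap the gene and do not lie wholly upstream of it. All 5 windows hold the motif GGGCGG on either strand and all hold CCAAT, and TATAAA is in those of Tnrc18 and Gm51708. The E-box CACGTG is in none of the 5, nor is the AP-1 site TGAGTCA, nor the PU.1 form GAGGAAGT.

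Intergenic NONCODE lncRNAs were mostly short, unspliced and scarce. Their median length was 1243.5 bases (range 201 to 18896), and in 4683 of them (81.5%) the length equalled the genomic span of the locus, so that no intron was removed. The median distance to the nearest gene was 3860 bases, and the nearest gene was protein-coding for 3908. RefSeq, another annotation, had a gene over 1758 of them (30.6%). The median was 8 reads over the 3 libraries. Only 1352 (23.5%) reached the 20 reads set as the minimum for ratios, 216 reached 100 reads and 21 reached 1000, yet the 1352 held 93.1% of the 466598 reads on all members. The other 4394 entered the sums and the detection counts only.

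More members were detected in BMM-ABs than in the later ABs. At least 1 read was present for 4970 members in BMM-ABs, 4748 members in pOC-ABs and 3868 members in mOC-ABs. With at least 3 reads these were 3608, 3214 and 2144. All 3 libraries shared 2966 members, and 872 were seen in a lone library. The mRNA and lncRNA tables together held 12734764, 11865332 and 11556957 reads, so depth fell by far less than detection from pOC-ABs to mOC-ABs. A member without reads could still have made up 2.36e-05%, 2.53e-05% or 2.60e-05% of these reads, the share of 3 reads.

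Members took 204650 reads in BMM-ABs, 137989 reads in pOC-ABs and 123959 reads in mOC-ABs. These are 1.61% of mRNA and lncRNA reads (95% exact binomial interval 1.60 to 1.61), 1.16% (1.16 to 1.17) and 1.07% (1.07 to 1.08). Such intervals cover counting error only, and with 1 library per stage no spread between replicates could be measured and no test between stages was possible. Most of the fall came from a locus on chromosome 11 (chr11:86811828-86816129, between genes, nearest the RNA helicase gene Dhx40). It held 124856, 64135 and 57348 reads, or 61.0%, 46.5% and 46.3% of the reads on members. Without it the shares were 0.627% (0.622 to 0.631), 0.622% (0.618 to 0.627) and 0.576% (0.572 to 0.581), so BMM-ABs and pOC-ABs had overlapping intervals and mOC-ABs lay below both.

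**Figure D1:**
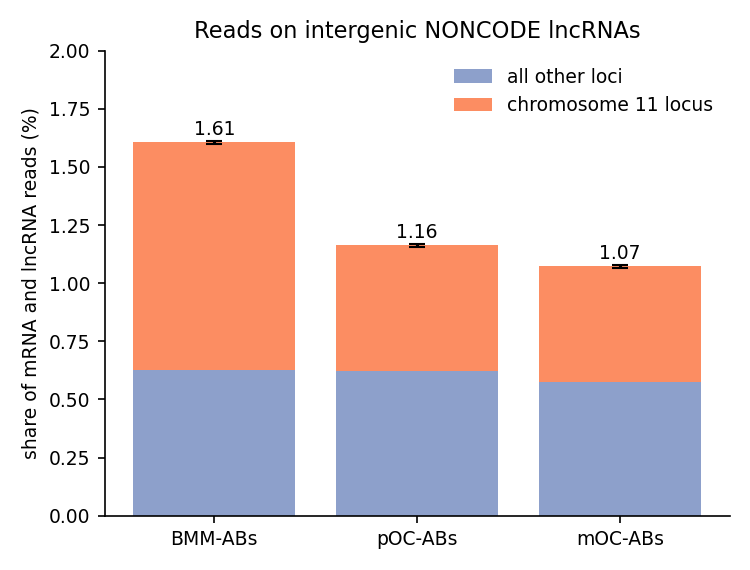
Bars give the percentage of mRNA and lncRNA reads on intergenic NONCODE lncRNAs in each library, split into the chromosome 11 locus near Dhx40 and all other loci. Error bars are 95% exact binomial intervals of the total. The totals were 1.61%, 1.16% and 1.07%, while the part outside the locus was 0.627%, 0.622% and 0.576%.

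The overlapping RNAs at this locus went opposite ways. NONMMUT011311.2 (chr11:86812765-86816129, 3365 bases) counted 114744 reads in BMM-ABs against 22036 in pOC-ABs and 22264 in mOC-ABs. NONMMUT011310.2 (chr11:86811828-86814524, 2697 bases), which overlaps its left part, had 10109, 42094 and 35063 reads. From BMM-ABs to pOC-ABs the log2 ratio was -2.28 (95% interval -2.30 to -2.26) for the former and 2.16 (2.13 to 2.19) for the latter, whereas the summed locus was at -0.86 (-0.87 to -0.85). The third member of the locus, NONMMUT011314.2 (262 bases), had 3, 5 and 21 reads. Reads on the bases shared by overlapping transcripts have to be divided among them. The table gives only the outcome, so the sum of the locus is better determined than its parts. The reads of Dhx40 itself were 270, 307 and 214.

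The same 5 members had the most reads in all 3 libraries. Beside the chromosome 11 pair they were NONMMUT033452.2, NONMMUT017649.2 and NONMMUT110472.1. NONMMUT033452.2 (chr19:4062439-4065879), 2869 bases from the glutathione S-transferase gene Gstp3, had 3963, 7105 and 15548 reads. It was higher at each later stage, and its log2 ratio was 2.11 (2.06 to 2.16) between mOC-ABs and BMM-ABs. Per length it was at 90.4, 174 and 391 FPKM as deposited. NONMMUT017649.2 (chr13:55184771-55186647), 16011 bases beyond the end of the growth factor receptor gene Fgfr4, had 6570, 3386 and 3666 reads. Between the same ABs its log2 ratio was -0.70 (-0.76 to -0.64). NONMMUT110472.1 (chr3:5860338-5860904), 19927 bases from the lincRNA gene Gm37350, had 4466, 3751 and 4066 reads, and its log2 ratio was 0.01 (-0.06 to 0.07).

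The main comparison asked which members differed between ABs of the 3 stages. A member was called higher or lower when the ratio of its share of reads was above 2 or below 0.5, and all lncRNAs with 20 or more reads (9154) served as background. In pOC-ABs against BMM-ABs, 355 of the 1352 members (26.3%) were higher, against 15.9% of all lncRNAs. Another 290 (21.4%) were lower, against 31.7% of all lncRNAs. The median log2 ratio of members was 0.17, while that of all lncRNAs was -0.38. With size factors from the mRNA table in place of library totals, all log2 ratios of this comparison moved up by 0.25 and 454 members were higher and 238 lower, so that 65.6% of the called members were higher in place of 55.0%. Higher members no longer outnumbered lower ones without a minimum of reads (1712 higher and 1759 lower) or with a pseudocount of 1 RPM (127 higher and 130 lower). All lncRNAs were not counted in these settings, so the excess over that background was not tested there. Of the 216 members with 100 or more reads, 15.3% were higher, no more than the 15.9% of all lncRNAs.

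In mOC-ABs against BMM-ABs, members followed the other lncRNAs more closely. Only 81 members (5.99%) were higher, against 6.52% of all lncRNAs, and 569 (42.1%) were lower, against 47.3%. The medians were -0.71 for members and -0.86 for all lncRNAs. In mOC-ABs against pOC-ABs the difference returned with the opposite sign. There 136 members (10.1%) were higher, against 11.7% of all lncRNAs, and 639 (47.3%) were lower, against 33.6%, with medians of -0.84 and -0.44. The comparisons share libraries, so a high pOC-AB value enters both the first and the third.

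Members peaked most often in pOC-ABs. The highest level was in pOC-ABs for 691 members, in BMM-ABs for 529 members and in mOC-ABs for 132 members, and the lowest level was in mOC-ABs for 801. The same counts over all lncRNAs were not made, so these alone do not set the members apart. A signature of an AB was a member called higher there than in both other ABs. There were 296 pOC-AB signatures (21.9%, against 11.5% of all lncRNAs), 200 BMM-AB signatures (14.8%, against 22.3%) and 25 mOC-AB signatures (1.85%, against 2.52%). NONCODE lncRNAs that do overlap a GENCODE gene held 9.27% pOC-AB signatures among 6291, and Ensembl lncRNAs held 11.0% among 1319. Another 309 members (22.9%) were past the limit in none of the comparisons, a share that was not computed for all lncRNAs.

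**Figure D2:**
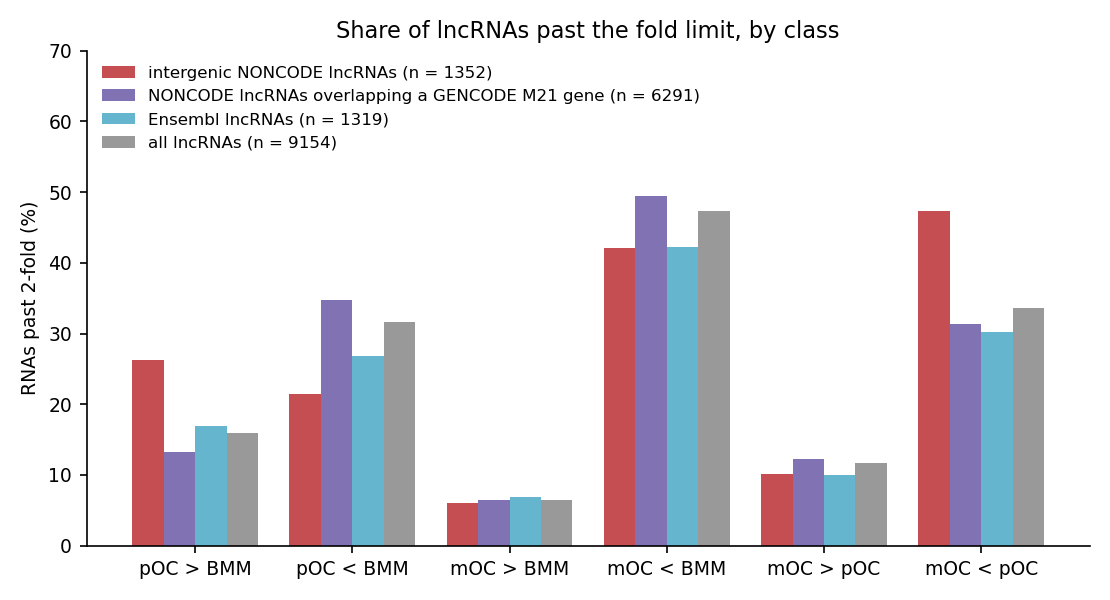
Bars give the percentage of RNAs with 20 or more reads whose ratio was past 2-fold, for each direction of the 3 comparisons of ABs, in 4 classes of lncRNA with their number in the key. Intergenic NONCODE lncRNAs (red) stood above the other classes in pOC-ABs over BMM-ABs (26.3%) and in mOC-ABs below pOC-ABs (47.3%).

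Position divided the members more than splicing, RefSeq overlap or depth did, a split made after values had been seen. Members within 1 kb of a gene were divided by whether the start or the end of that gene faced them. On the start side there were 1217 members, 477 of them with 20 or more reads. Of these 477, 213 (44.7%) were higher in pOC-ABs than in BMM-ABs and 26 (5.45%) were lower. In mOC-ABs 339 (71.1%) were lower than in pOC-ABs and 12 (2.52%) were higher. Among the other 875 members with 20 or more reads, 142 (16.2%) were higher in pOC-ABs than in BMM-ABs and 300 (34.3%) lower in mOC-ABs than in pOC-ABs, close to the background of all lncRNAs. The start-side members held 196 of the 296 pOC-AB signatures, and 374 of the 477 had their highest level in pOC-ABs.

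The levels of the start-side members show the same order without any fold limit. Summed over the 477, they reached 751 RPM in BMM-ABs, then 1197 RPM in pOC-ABs and 510 RPM in mOC-ABs. The 740 start-side members under 20 reads, which entered no ratio, summed to 166, 285 and 96.4 RPM. All other members with 20 or more reads summed to 14248, 9412 and 9670 RPM, with the chromosome 11 locus among them. Where the ratio also had to have an exact 95% interval beyond 1, 176 start-side members (36.9%) remained called higher in pOC-ABs than in BMM-ABs and 302 (63.3%) lower in mOC-ABs than in pOC-ABs, against 13.6% and 24.8% of the others. Among start-side members with at least 100 reads, 13 of 51 (25.5%) were higher in pOC-ABs than in BMM-ABs and 31 (60.8%) lower in mOC-ABs than in pOC-ABs.

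The pattern weakened about 1 kb from the gene. Higher in pOC-ABs than in BMM-ABs were 47.5% of the 141 members less than 100 bases from the facing start, 44.7% of the 179 from 100 to 250 bases, 45.0% of the 109 from 250 to 500 bases and 35.4% of the 48 from 500 to 1000 bases. From 1 to 2 kb it was 18.8% of 48 members. Of those 48, 45.8% were still lower in mOC-ABs than in pOC-ABs, against 33.6% of all lncRNAs. On the side of the gene end the share higher in pOC-ABs than in BMM-ABs was 23.8% of 21 members under 100 bases and 5.17% of 58 members from 500 to 1000 bases. Lower in mOC-ABs than in pOC-ABs were 52.4% of these 21 and 15.5% of these 58. At 10 kb or more from any gene, 42 of 202 members (20.8%) were higher in pOC-ABs than in BMM-ABs and as many were lower. Of the members 1 to 10 kb from a gene, 83 of 533 (15.6%) were higher and 190 (35.6%) lower, near the 15.9% and 31.7% of all lncRNAs.

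**Figure D3:**
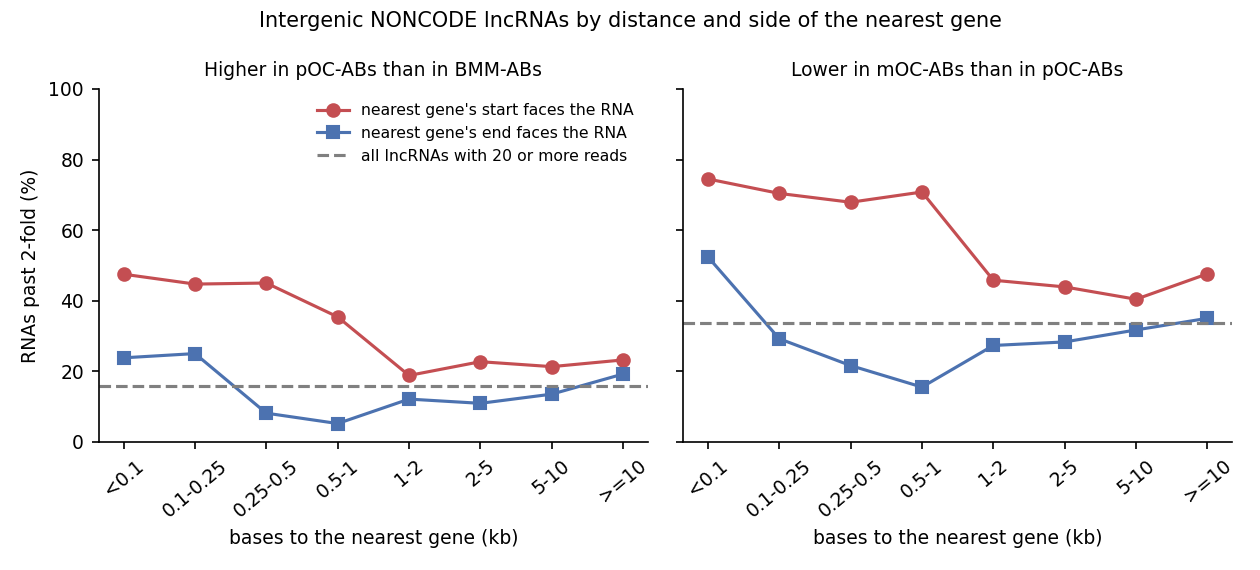
Percentage of intergenic NONCODE lncRNAs with 20 or more reads past 2-fold, by bases to the nearest gene (kb) and by which side of that gene faces the RNA, with the share of all lncRNAs as a dashed line. Points on the start side stood at 35.4% to 47.5% (left) and 67.9% to 74.5% (right) up to 1 kb, and at 18.8% to 23.2% and 40.4% to 47.6% beyond it.

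Start-side members beside protein-coding genes showed the difference most. Of 441, 204 (46.3%) were higher in pOC-ABs than in BMM-ABs, while of the 36 beside genes of another type 9 (25.0%) were. Unspliced (404) and spliced (73) start-side members had 45.8% and 38.4%. Ensembl lncRNAs placed the same way, overlapping no other gene and within 1 kb of the start of another gene, gave 44 of 120 (36.7%) higher in pOC-ABs than in BMM-ABs and 60 (50.0%) lower in mOC-ABs than in pOC-ABs. Ensembl lncRNAs that overlapped no other gene and lay elsewhere gave 24 of 222 (10.8%) and 39 (17.6%).

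The genes beside these members did not show the same values. For 457 start-side members, the neighbouring gene (444 genes) had at least 20 reads of its own. The median log2 ratio between pOC-ABs and BMM-ABs was 0.84 for the members and -0.28 for the genes. Between mOC-ABs and pOC-ABs it was -1.51 for the members and 0.10 for the genes. In the former comparison 207 members were higher and 19 lower, whereas 9 genes were higher and 41 lower, with 2 pairs higher together and 2 lower together. Genes mostly had more reads than the members, and so less counting error in their ratios. Across these pairs Pearson's r was 0.01 and Spearman's rho 0.11, a description over pairs that share the same libraries. On the gene-end side, 115 members and 109 genes had medians of -0.33 and -0.28 in the former comparison.

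**Figure D4:**
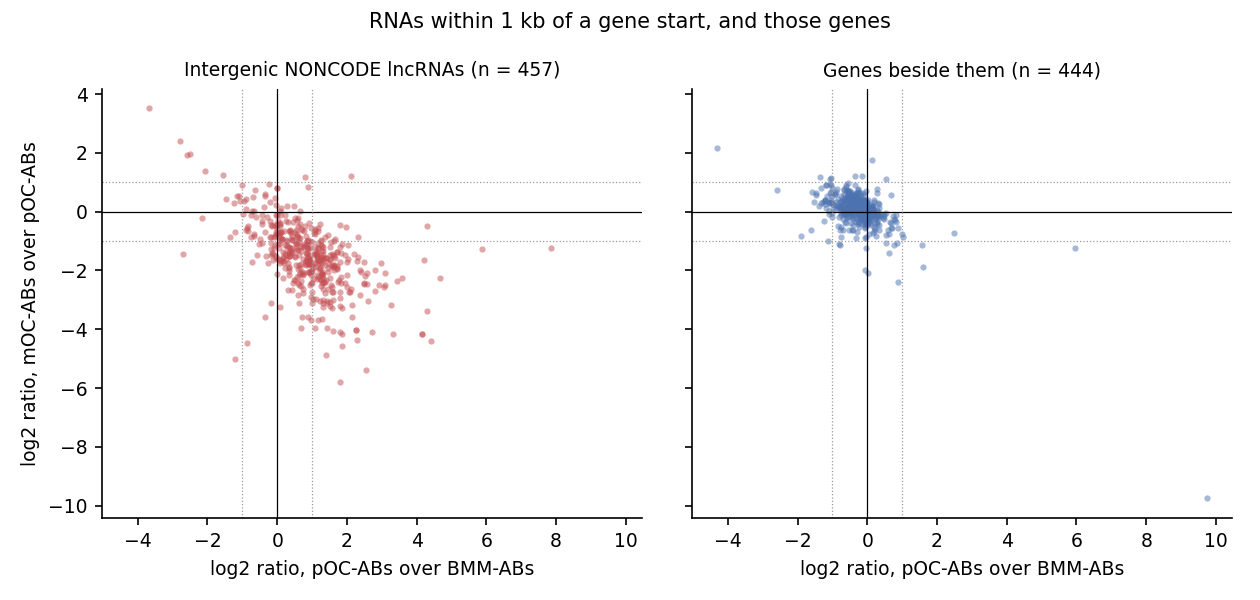
Each point is a member within 1 kb of a gene start (left, n = 457) or the gene beside it (right, n = 444), by its log2 ratio of pOC-ABs over BMM-ABs (horizontal) and of mOC-ABs over pOC-ABs (vertical), with 0.1 RPM added. Dotted lines mark 2-fold. The members gather at lower right, around medians of 0.84 and -1.51, and the genes around -0.28 and 0.10, with Hexim1 apart at 9.75 and -9.75. The axes share the pOC-AB library, so a slope between them is built in.

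The members whose windows are printed above illustrate this. NONMMUT149260.1 lies 65 bases from Tnrc18 and showed 0 reads in BMM-ABs beside 271 in pOC-ABs and 111 in mOC-ABs. It was at least 97.0-fold higher in pOC-ABs than in BMM-ABs, against a floor of 3 reads. Tnrc18 itself had 2700, 1220 and 1888 reads, highest in BMM-ABs. NONMMUT139212.1, 45 bases from the thiamine transporter gene Slc19a2, had 24, 101 and 15 reads, with log2 ratios of 2.18 (1.52 to 2.88) for pOC-ABs over BMM-ABs and -2.71 (-3.60 to -1.92) for mOC-ABs over pOC-ABs. Slc19a2 had 213, 169 and 114 reads.

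NONMMUT140414.1, 144 bases from Maml1, which encodes a coactivator of Notch, had 4, 90 and 27 reads, and Maml1 had 780, 450 and 517. NONMMUT010904.2, 26 bases from the mitotic spindle gene Spag5, had 26, 88 and 12 reads, and Spag5 had 900, 531 and 485. NONMMUT069371.2, beside the pyruvate kinase gene Pkm, had 58, 135 and 56 reads, and Pkm had 53741, 38702 and 46396. These members were chosen as pOC-AB signatures, so their own peak in pOC-ABs was fixed by the choice, and by share of reads the 5 genes were lowest in pOC-ABs or mOC-ABs.

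Among the 10 start-side members with the most reads, chosen after values had been seen and with the one beside Tnrc18 among them, the pattern was mixed. NONMMUT147756.1, 316 bases from Ensa, which encodes an inhibitor of the phosphatase PP2A, had 51, 205 and 29 reads and log2 ratios of 2.11 (1.66 to 2.58) and -2.78 (-3.40 to -2.22). NONMMUT151382.1 beside Chid1 had 119, 197 and 86 reads. Members beside Tbc1d22a (180, 167 and 96 reads), the p53 target Trp53inp1 (152, 155 and 79) and the MAP kinase phosphatase gene Dusp4 (113, 115 and 58) were alike in BMM-ABs and pOC-ABs and lower in mOC-ABs. NONMMUT056584.2 beside the T cell receptor segment Trbv21 (528, 510 and 748) and NONMMUT010448.2 beside Fgf11 (233, 170 and 240) were highest in mOC-ABs by share of reads. RefSeq has Tcrb over the former locus and Fgf11 over the latter. NONMMUT120195.1 beside the histone methyltransferase gene Nsd2 (209, 90 and 127) and NONMMUT087456.1 beside Gm26698 (247, 51 and 43) were highest in BMM-ABs.

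Promoter windows of RefSeq, chosen after values had been seen, gave a similar view from another annotation. They lie at gene starts and draw on the same reads, so they are not separate support for the start-side pattern. In all, 661 members shared bases with a window, 260 of them with 20 or more reads. Of the 260, 105 (40.4%) were higher in pOC-ABs than in BMM-ABs, 174 (66.9%) lower in mOC-ABs than in pOC-ABs and 97 (37.3%) were pOC-AB signatures, against 22.9%, 42.6% and 18.2% of the 1092 that shared none. The 308 windows touched by these members were rich in CpG, with a median of 25 CpG and 63.3% G and C, against 7 CpG and 52.7% in all 32851 windows. The 118 windows of pOC-AB signatures had 27 CpG and 63.7%, close to the 308. Windows of genes matched for type and reads were not compared. The part of gene class in these contrasts with all windows, and in the motif shares below, was not tested.

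Motifs were searched on both strands of the same windows. GGGCGG, the letters of a GC box, was in 35.7% of all windows, in 65.9% of windows touched by members and in 78.0% of windows of pOC-AB signatures. TATAAA was in 13.6%, 5.52% and 4.24%, and CCAAT in 37.4%, 38.6% and 40.7%. The E-box CACGTG was in 7.15%, 11.4% and 13.6%. TGAGTCA, the site of AP-1 factors such as Fos, was in 5.20%, 6.82% and 5.93%, and GAGGAAGT, a form of the PU.1 site, in 3.20%, 1.95% and 2.54%. Windows with many CpG hold more G and C letters, and the part of composition in the GGGCGG matches was not tested. A match is of letters only.

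The strongest signatures of pOC-ABs were all start-side members. By the smaller of their 2 log2 ratios, the 5 highest with 20 or more reads were NONMMUT017413.2 (0, 24 and 0 reads), NONMMUT145546.1 (0, 22 and 1), NONMMUT033805.2 (1, 20 and 0), NONMMUT110076.1 (0, 20 and 0) and NONMMUT074613.2 (0, 20 and 0). They lay 211 bases from the inositol phosphate kinase gene Ippk, 527 from the ubiquitin ligase gene Rnf138, 152 from the mRNA export gene Nxf1, 517 from the splicing factor gene Srsf6 and 335 from the clathrin adaptor gene Ap1s2. RefSeq has Ap1s2 over the locus of NONMMUT074613.2. NONMMUT017413.2 was at least 8.59-fold higher in pOC-ABs than in BMM-ABs and at least 7.79-fold higher than in mOC-ABs. The reads are few, and rank by ratio favours RNAs at 0 elsewhere. Beside Nxf1 and Ap1s2 another start-side member, named after values had been seen, went the opposite way. With 0.1 RPM added, NONMMUT033806.2 at Nxf1 had log2 ratios of -2.79 (pOC-ABs over BMM-ABs) and 2.39 (mOC-ABs over pOC-ABs). NONMMUT154380.1 at Ap1s2 had -2.49 and 1.97.

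The 5 strongest signatures of BMM-ABs faced the end of their nearest GENCODE gene. NONMMUT043279.2 (chr3:60877817-60878845), 229 bases beyond the pseudogene Gm8325, counted 941 reads in BMM-ABs beside 3 in pOC-ABs and 4 in mOC-ABs, a log2 ratio of -8.19 (-10.47 to -6.64) for pOC-ABs over BMM-ABs. RefSeq has Gm8325 over this locus, so by RefSeq the RNA does not lie wholly beyond that gene. Gm8325 as annotated by GENCODE had 412, 502 and 459 reads. NONMMUT152939.1, 370 bases from the malonyl-CoA decarboxylase gene Mlycd, had 91, 0 and 0 reads and its pOC-AB level was at least 28.3-fold lower. NONMMUT140589.1, 515 bases from the autophagy gene Vmp1, had 36, 0 and 0. RefSeq has Mlycd and Osgin1 among the genes over NONMMUT152939.1, and Tubd1 over NONMMUT140589.1. NONMMUT098052.1 had 33, 0 and 0 and NONMMUT131922.1 had 32, 0 and 0. NONMMUT149212.1 (chr5:135622606-135628962), 3655 bases from Rhbdd2 and named after its values were seen, had 1079, 430 and 8 reads.

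The signatures of mOC-ABs were few. NONMMUT109311.1 (chr2:84586896-84592838), in a region where RefSeq extends Ctnnd1, the gene of p120 catenin, had 0, 0 and 113 reads. It was at least 41.5-fold higher in mOC-ABs than in BMM-ABs and at least 38.7-fold higher than in pOC-ABs, while Ctnnd1 had 2591, 1789 and 2042 reads. NONMMUT049738.2, 103 bases beyond the GENCODE end of Nkain1, a partner of the sodium pump, had 18, 37 and 128 reads, and Nkain1 had 6, 32 and 53. RefSeq has Nkain1 over this locus as well. NONMMUT031989.2 near Pura had 2, 1 and 25 reads, NONMMUT097328.1 had 1, 1 and 22, and NONMMUT011314.2 of the chromosome 11 locus completes the 5.

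**Figure D5:**
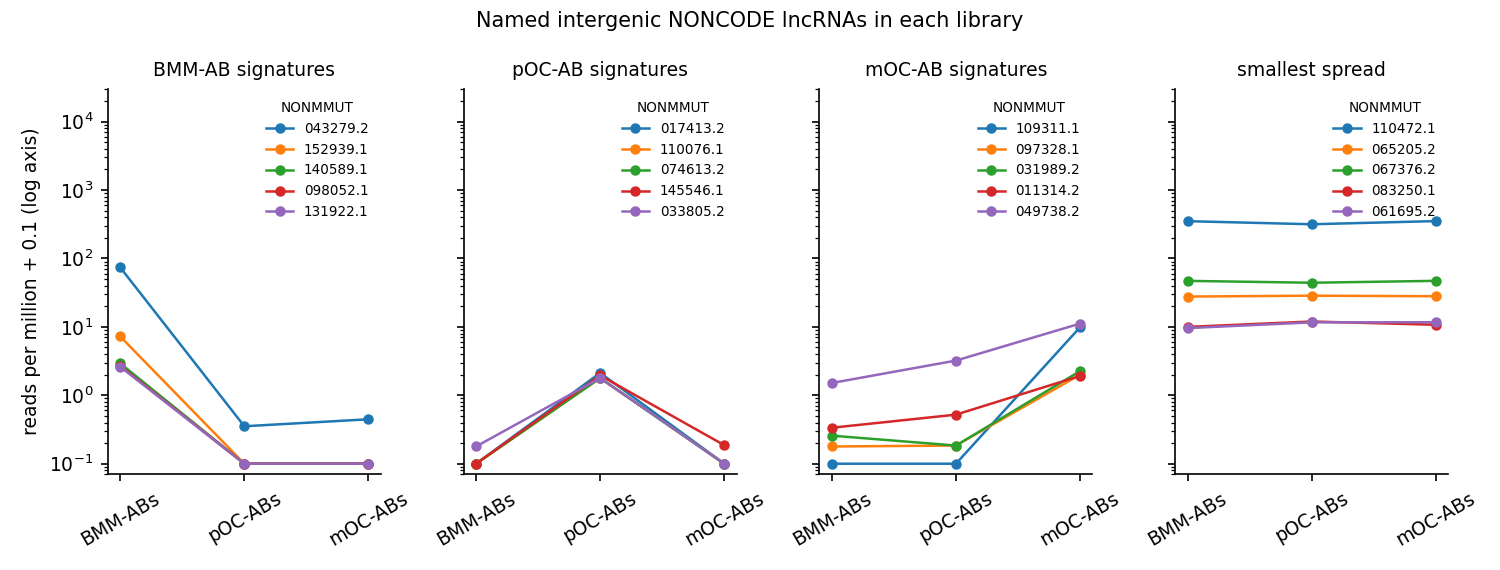
RPM with 0.1 added, on a log axis, in the 3 libraries for the 5 strongest signatures of each AB and for the 5 members of smallest spread among those with 200 or more reads. pOC-AB signatures reached only about 2 RPM, while BMM-AB signatures reached 73.9 RPM and the steady members ran from 9.50 to 352 RPM.

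Other members stayed level. Of the 88 members with 200 or more reads, 47 spanned less than 2-fold between their highest and lowest library. The share of all lncRNAs with as many reads that stayed this level was not computed. NONMMUT065205.2, 689 bases beyond the end of Dusp4, had 352, 338 and 323 reads, or 27.6, 28.5 and 27.9 RPM, the smallest spread of the 88. NONMMUT067376.2, beyond the GENCODE end of Cmip but within Cmip or overlapping it by RefSeq, had 598, 523 and 543 reads. NONMMUT083250.1 had 126, 141 and 123, and NONMMUT061695.2 in the imprinted Snhg14 and Snrpn region had 121, 137 and 134. NONMMUT110472.1, given above, was the fifth. Dusp4 thus had a steady member at its end and, at its start, NONMMUT152633.1 with 113, 115 and 58 reads.

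Overlapping members that differed in opposite directions were not limited to chromosome 11. The 5746 members fall into 5062 loci, 445 of which hold several overlapping members. Among the 298 of these with 20 or more reads, 69 loci had a higher and 60 a lower member in pOC-ABs against BMM-ABs. Both were present in 13 loci, and in 10 of the 13 the summed reads stayed within 2-fold. In mOC-ABs against BMM-ABs 27 loci had a higher member, 116 a lower and 9 both (3 within 2-fold). In mOC-ABs against pOC-ABs 35 had a higher, 117 a lower and 11 both (6 within 2-fold). Whether loci held both more often than these separate counts would give was not tested.

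NONMMUT140589.1 and NONMMUT140590.1 near Vmp1 have the same outer ends (chr11:86569345-86583349) and lengths of 11065 and 12805 bases. The former had 36, 0 and 0 reads and the latter 0, 114 and 16. At Mlycd, NONMMUT152939.1 with 91, 0 and 0 reads overlaps NONMMUT067399.2 with 0, 38 and 41. Near the DNA damage kinase gene Atm, NONMMUT069141.2 (chr9:53437122-53438149) had 38, 2 and 2 reads and NONMMUT069142.2 (chr9:53437350-53438978) had 15, 87 and 91. At Fgfr4 the large NONMMUT017649.2 stands beside NONMMUT089907.1 with 100, 3 and 133 reads and NONMMUT089908.1 with 5, 31 and 8. The table has no strand, so reads from opposite strands of such a locus cannot be told apart.

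Few members lay near genes of the osteoclast or macrophage lists. Within 50 kb of such a gene, 11 members had 20 or more reads. NONMMUT145493.1, 1834 bases from the start of Nfatc1, the master transcription factor of osteoclasts, had 54, 86 and 50 reads, while Nfatc1 had 2566, 2772 and 8463. Its log2 ratio for mOC-ABs over BMM-ABs was 0.03 (-0.56 to 0.61). At Fos, 3 members had 15, 15 and 5 reads, 9, 14 and 7 reads, and 12, 11 and 4 reads, with 1118, 562 and 363 on Fos. NONMMUT028716.2 near Clcn7, the gene of the lysosomal chloride transporter, had 15, 14 and 10.

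On the macrophage side, NONMMUT026006.2 lay 222 bases from the start of Bcl6, a repressor of osteoclast genes. It had 13, 30 and 8 reads, with log2 ratios of 1.31 (0.33 to 2.37) for pOC-ABs over BMM-ABs and -1.87 (-3.21 to -0.71) for mOC-ABs over pOC-ABs, and Bcl6 had 653, 503 and 364. NONMMUT146966.1, 13847 bases from the efferocytosis receptor gene Mertk and 312 bases from the start of Tmem87b, had 10, 29 and 2. NONMMUT147763.1, 46704 bases from the Fc receptor gene Fcgr1, had 9, 35 and 8, and NONMMUT111675.1 had 8, 19 and 17. The member near Cebpa had 9, 13 and 1 reads and that near the endotoxin receptor gene Cd14 had 8, 11 and 8, both with intervals for pOC-ABs over BMM-ABs that include no change.

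Splicing, RefSeq annotation and depth divided the members less than position did. Higher in pOC-ABs than in BMM-ABs were 27.2% of the 1110 unspliced and 21.9% of the 242 spliced members, and 26.2% and 26.3% of those with (489) and without (863) a RefSeq gene over them. By depth it was 29.3% of the 812 members with 20 to 49 reads, 25.9% of the 324 with 50 to 99 and 15.3% of the 216 with 100 or more. Lower in mOC-ABs than in pOC-ABs were 50.2%, 50.9% and 30.6%. All lncRNAs with 20 or more reads stood at 15.9% and 33.6%, so members with 100 or more reads showed no excess over them. All lncRNAs were not divided by depth, so members and background were not compared at equal depth. The shares higher in mOC-ABs than in BMM-ABs were 6.28%, 4.63% and 6.94%.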

How the data were processed

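The authors deposited a table of mRNAs and a table of lncRNAs, each with a read count and an FPKM value per transcript for the 3 ABs, and a table of circRNAs with junction read counts. The labels call the samples total RNA, while the methods describe paired-end libraries of RNA bound to poly-T beads. FastQC, HISAT2, StringTie and GRCm38 are named in the submitters' processing notes. How reads on overlapping transcripts were divided is not given in the sources used here. FPKM values of the authors, reads per length and library, were printed for 1 RNA, and the transcript length column (other) was set against the genomic span.

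Loci were compared with 55536 GENCODE M21 genes on 21 chromosomes and with RefSeq in Python 3.11.15 (numpy 2.4.6, pandas 2.3.3, scipy 1.17.1). Counts were divided by the reads of the mRNA and lncRNA tables together. RNAs with 20 or more reads over the 3 libraries were called past a ratio of 2 or 0.5, and medians used log2 of RPM plus 0.1. Reads carry no molecular identifiers, so the exact 95% intervals (Clopper-Pearson) and the floor of 3 reads cover counting error only. With 1 library per stage no p-value was computed.

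Members, gene lists and marker lists were chosen with earlier results of these data known, and the gene sides, promoter windows and motifs after values had been seen. RNAs named by rule were the 5 with most reads per library, the 5 strongest signatures per AB, the 5 of smallest spread, the members of the 3 loci with the most reads, and those within 50 kb of a listed gene. The alternatives were other scalings, minimum reads, a pseudocount of 1 RPM, distances and overlaps of loci, and intervals.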

Additional observations from a re-analysis of the deposited data

Results flagged for a closer look

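The circRNA table, which the comparisons do not use, held reads on members. Of its 1372 circRNAs, 27 were typed as lying between genes, and 3 had a back-splice end inside an intergenic NONCODE lncRNA, 59 junction reads in all. circRNA.496 (chr18:31633790-31636099) begins inside NONMMUT031801.2, a member beside Sap130, and its span reaches into that gene. It counted 23 junction reads in BMM-ABs beside 14 in pOC-ABs and 18 in mOC-ABs, above the limit of 3 reads in each library. The other circRNAs with an end in a member, at the locus near Slco4a1 on chromosome 2, had 2 junction reads each.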

How the results depend on the processing

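With size factors or the mRNA reads alone as the scale, no count of calls moved by more than 1.5 times, nor did any when overlapping members were summed. In the order higher in pOC-ABs than in BMM-ABs, lower, higher in mOC-ABs than in BMM-ABs, lower, higher in mOC-ABs than in pOC-ABs and lower, the counts were 1712, 1759, 779, 2762, 1064 and 2629 without a minimum of reads, 117, 88, 30, 185, 49 and 231 with a minimum of 50 reads, 127, 130, 29, 145, 29 and 259 with a pseudocount of 1 RPM, and 42, 42, 16, 77, 25 and 81 at 10 kb or more from a gene. Without RefSeq genes over the locus 227 and 193 were higher and lower in pOC-ABs than in BMM-ABs, and 49 and 80 were higher in mOC-ABs than in BMM-ABs and pOC-ABs. With an interval beyond 1, mOC-ABs had 49 higher and 373 lower than BMM-ABs and 78 higher than pOC-ABs. Members lower in pOC-ABs than in BMM-ABs outnumbered those that were higher without a minimum of reads and with the pseudocount, and equalled them at 10 kb or more from a gene. The pseudocount and the interval moved counts over the same 1352 members.

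For start-side members, whose alternatives were chosen after the data were seen, those higher in pOC-ABs than in BMM-ABs and those lower in mOC-ABs than in pOC-ABs numbered 567 and 795 without a minimum, 64 and 121 with a minimum of 50 reads, 79 and 164 with the pseudocount, and 125 and 213 without RefSeq genes. Their percentages were above those of the other members in each of these settings (46.6 against 25.3, 36.4 against 14.6, 16.6 against 5.49 and 43.7 against 17.7 for the former).

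Shares of reads, from BMM-ABs to mOC-ABs by stage, were 5.63%, 3.08% and 3.22% of the lncRNA table alone, 0.183%, 0.159% and 0.150% at 10 kb or more from a gene, 1.40%, 0.953% and 0.886% without RefSeq genes, and, added after the data were seen, 0.627%, 0.622% and 0.576% without the chromosome 11 locus. Detected were 1023, 975 and 765 members at 10 kb or more from a gene, and 2144 in mOC-ABs with at least 3 reads. No paired analysis was possible because each stage had 1 library. Without replicates the counting intervals do not cover variation between cultures, and the scarce members with 20 to 49 reads are the least precise.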
